A study of Saccharomyces cerevisiae with 9 samples.

Results

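The genes described here encode the upstream side of the Ypk kinase pathway of budding yeast: 6 subunits of the TORC2 protein kinase complex (TOR2, AVO1, AVO2, TSC11, BIT61 and LST8), 2 Slm adaptors (SLM1 and SLM2) and 2 Pkh kinases (PKH1 and PKH2). They were picked by systematic name, YKL203C, YOL078W, YMR068W, YER093C, YJL058C, YNL006W, YIL105C, YNL047C, YDR490C and YOL100W in that order, and all 10 were found among the 6268 features of the table. TORC2 sits at the plasma membrane and senses membrane stress. The Slm proteins bind a phosphoinositide of the inner leaflet and bring Ypk1 and Ypk2 to TORC2, which phosphorylates the C-terminal part of the Ypk kinases, while Pkh1 and Pkh2 phosphorylate their activation loop. Active Ypk1 and Ypk2 then adjust sphingolipid synthesis, lipid flipping and other membrane functions.

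Transcripts were measured on 9 dual-channel arrays of Saccharomyces cerevisiae. All strains lack both chromosomal genes, YPK1 and YPK2, carry 1 of the kinases on a plasmid, and were grown in SCD-Leu medium. On 4 arrays, cells with analog-sensitive (AS) Ypk1, an engineered form that an ATP analog can block, were compared with cells with wild-type (WT) Ypk1 after 0, 15, 30 and 60 min of 0.5 µM 2,3-DMB-PP1. Another 4 arrays compared AS Ypk2 with WT Ypk2 cells at the same times of 1 µM 3-MB-PP1, and the last compared WT Ypk2 with WT Ypk1 cells without inhibitor. AS and WT cells on an array had the same inhibitor for the same time. The promoters of the plasmids, the number of clones and whether the times came from separate cultures are not given in the sources used here. The Ypk1 and Ypk2 series differ in both the kinase and the inhibitor, whose parts cannot be told apart.

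Every condition had 1 array, no dyes were swapped, and the number of arrays limits the precision. A ratio on these arrays thus cannot be told apart from a dye effect on that gene. Values are log2 ratios, AS over WT (or WT Ypk2 over WT Ypk1), relative to the median feature of the array, so that 1 is a 2-fold difference. Each array held 6225 to 6268 values, and their medians before centring ran from −0.52 to 0.23. RNA came from whole cultures, so fewer cells with a transcript and less transcript per cell cannot be told apart. As a check of the strains, YPK2 stood at 5.49 and YPK1 at −4.33 on the WT array. YPK1 was at 0.73, 0.82, 2.44 and 1.55 over time with AS Ypk1, and YPK2 was at 1.06, 1.36, 1.53 and 1.36 with AS Ypk2. The ratio of the plasmid kinase was thus above 0 before inhibitor as well. More transcript in AS cells and a dye effect cannot be told apart here. YPK2, whose chromosomal copy all strains lack, was at 0.25, 1.42, 0.52 and 0.94 in the Ypk1 series. LEU2, the gene for growth without leucine, was above 0 on all 9 arrays, from 0.99 to 2.46. The a-specific mating genes and the α-specific ones were not uniformly high or low: of 6 and 4 tested, BAR1 passed as higher and MF(ALPHA)1 as lower in both series. Of all features, 10.9% and 6.98% were called higher and 10.5% and 4.73% lower in the Ypk1 and Ypk2 series. BAR1 was at 0.58 and −0.08 at 0 min and at 3.48 and 2.52 at 60 min of these series. MF(ALPHA)1 was at 1.12 and 0.75 at 0 min and at −0.73 and −1.67 at 60 min. The part that differences between the strains have in these values and in the results was not tested.

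A later ratio is the mean of 15, 30 and 60 min of a series, with its SD over these 3 times, and was tested against 0 with limma over 6220 features. This is the comparison of AS with WT cells at the same time that the study was built for. Its p-values measure the spread between the later times within each series, pooled over both, and not between independent cultures. A change is the later ratio minus the 0 min array of the series.

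For most of the 10 genes, the difference between AS and WT cells did not exceed the spread between times. In the Ypk1 series, AVO2 was higher in AS cells and the other 9 genes did not pass. After 3-MB-PP1, PKH2 was higher in AS cells and the other 9 did not pass. No gene of the 10 passed as lower in either series. The background was 10.9% of features called higher and 10.5% called lower in the Ypk1 series, and 6.98% and 4.73% in the Ypk2 series, so 1 called gene of 10 is close to the share over the whole table. Counted in either direction the background was 21.5% and 11.7%. At an unadjusted p under 0.05, AVO2, TSC11, PKH1 and PKH2 were past for Ypk1, 4 of 10 beside 36.8% of features, and PKH2 alone for Ypk2, beside 27.6%. The 10 genes had median later ratios of 0.07 (Ypk1) and 0.15 (Ypk2), beside medians of −0.01 and 0.01 over all features.

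**Figure D1:**
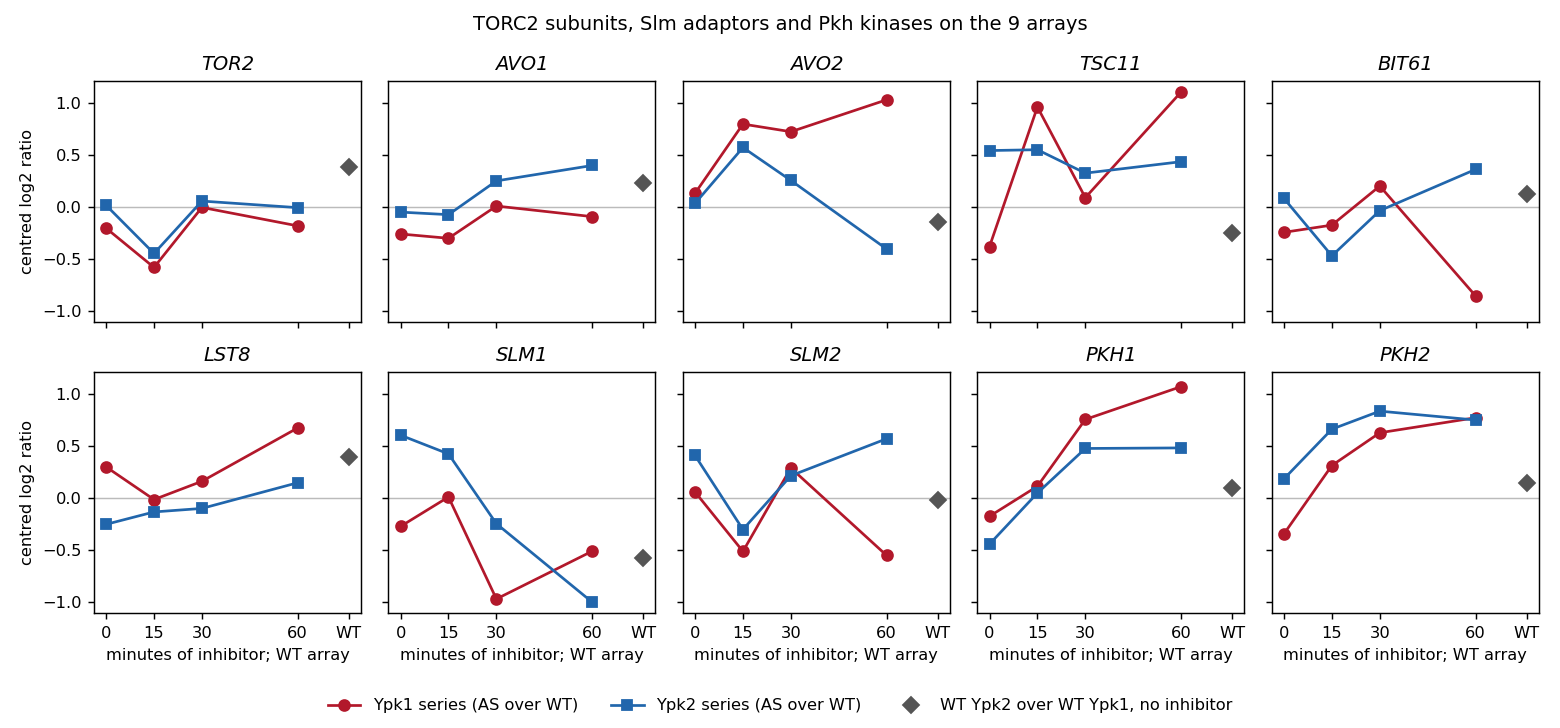
Centred log2 ratio (vertical axis) of each of the 10 genes against minutes of inhibitor, with the Ypk1 series as red circles, the Ypk2 series as blue squares and the WT array as a grey diamond; each point is 1 array. On this centred scale PKH1 and PKH2 stand above 0 at all later times of both series (without centring, only PKH2 in the Ypk2 series), AVO2 does so in the Ypk1 series, and SLM1 ends at −0.51 and −0.998.

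Among the TORC2 subunits, TOR2 encodes the kinase itself. Its ratio was −0.20, −0.58, −0.0033 and −0.18 at 0, 15, 30 and 60 min of the Ypk1 series. On the Ypk2 arrays it was 0.017, −0.45, 0.058 and −0.0056. The lowest value of both series fell at 15 min, and TOR2 was the only one of the 10 genes below 0 at all 3 later times of the Ypk1 series, which held for 25.5% of features (without centring, AVO1 and SLM1 were too). Its later ratios were −0.25 ± 0.30 and −0.13 ± 0.27 (SD, n = 3 each; limma adjusted p = 0.416 and 0.739), and the intervals, −0.73 to 0.23 and −0.61 to 0.35 (95%), hold no 2-fold difference.

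AVO1 encodes an essential subunit that helps to hold the complex at the membrane. AS Ypk1 cells had ratios of −0.26, −0.30, 0.0098 and −0.092 over time, and AS Ypk2 cells had −0.049, −0.073, 0.25 and 0.40. AVO1 thus stayed within 0.40 of 0 on the 8 arrays of the time courses. Neither later ratio passed, at −0.13 ± 0.16 and 0.19 ± 0.24 (SD, n = 3 each; limma adjusted p = 0.667 and 0.577).

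AVO2, a nonessential subunit with ankyrin repeats, had ratios of 0.13 at 0 min and then 0.80, 0.72 and 1.03 in the Ypk1 series. The 3 later values all lay above the 0 min value. The later ratio was 0.85 ± 0.16 (SD, n = 3), a 1.80-fold higher level in AS cells with a 95% interval of 0.33 to 1.37 (limma adjusted p = 0.0315). On the Ypk2 arrays AVO2 was at 0.035, 0.57, 0.26 and −0.40, so that the later values lay on both sides of 0, with a mean of 0.14 ± 0.50 (SD, n = 3; limma adjusted p = 0.742). The difference between the series, 0.71 (95% interval −0.03 to 1.45), did not pass (limma adjusted p = 0.516). The Ypk1 call was lost without the 15, 30 or 60 min array of its own series (adjusted p = 0.0700, 0.0706 and 0.128), without the Ypk2 30 min array, which only enters the shared spread (adjusted p = 0.0664), and with scaled, weighted or uncentred arrays (adjusted p = 0.0605, 0.0530 and 0.145). With 0 min subtracted, the change was 0.72 ± 0.46 (SE; limma adjusted p = 0.578), and 0.20 without centring.

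TSC11, also known as AVO3, encodes an essential scaffold subunit. Its ratio in the Ypk1 series was −0.38 at 0 min, the lowest of the 10 genes there, and then 0.96, 0.091 and 1.11. The Ypk2 series gave 0.54, 0.55, 0.33 and 0.44, with hardly any movement after inhibitor. AS Ypk1 cells thus stood high at 15 and 60 min but not at 30 min, while AS Ypk2 cells stood above WT before inhibitor as well. Its later ratios were 0.72 ± 0.55 (Ypk1) and 0.44 ± 0.11 (Ypk2; SD, n = 3 each; limma adjusted p = 0.0605 and 0.278). TSC11 passed for the Ypk1 ratio without the 30 min array (1.03, limma adjusted p = 0.0251). The change on Ypk1 inhibition was 1.10 ± 0.47 (SE), with an unadjusted p of 0.0466 and a limma adjusted p of 0.431, and 0.58 without centring, and the change on Ypk2 inhibition was −0.11 ± 0.47 (limma adjusted p = 1.000).

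BIT61 encodes a peripheral subunit with a related protein, Bit2. Its Ypk1 ratios were −0.24, −0.17, 0.20 and −0.85, and its Ypk2 ratios were 0.083, −0.47, −0.034 and 0.36. The 60 min arrays thus lay on opposite sides of 0. BIT2 itself, at 0.54 and 0.022 on those 60 min arrays, had later ratios of 0.39 ± 0.24 and −0.07 ± 0.13 (SD, n = 3 each; limma adjusted p = 0.184 and 0.865). BIT61 had later ratios of −0.28 ± 0.54 and −0.05 ± 0.42 (limma adjusted p = 0.475 and 0.932), and without the Ypk1 60 min array the first was 0.01.

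LST8 encodes a small propeller protein that TORC2 shares with TORC1, the related complex that controls growth. It had ratios of 0.30, −0.01, 0.16 and 0.68 with AS Ypk1, and of −0.25, −0.13, −0.098 and 0.15 with AS Ypk2. Within each series the 60 min array was the highest. The later ratios, 0.28 ± 0.36 and −0.03 ± 0.15 (SD, n = 3 each), did not pass (limma adjusted p = 0.374 and 0.952).

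The Slm adaptors did not move as a pair. SLM1 had ratios of −0.27, 0.012, −0.97 and −0.51 in the Ypk1 series and of 0.61, 0.43, −0.24 and −0.998 in the Ypk2 series. With AS Ypk2 it was the highest of the 10 genes at 0 min and the lowest at 30 and 60 min, stepping down at each time, a pattern found in 8.79% of features. SLM2 ran at 0.060, −0.51, 0.29 and −0.55 and at 0.41, −0.30, 0.22 and 0.57. It was lower at 15 min than at 0 and 30 min in both series, as TOR2 was.

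On the Ypk2 60 min array SLM1 minus SLM2 was −1.57 on the log2 scale, the widest gap between them on the 9 arrays. At 15 min of both series SLM1 was the higher one, with SLM1 minus SLM2 at 0.52 and 0.73. The later ratios of SLM1 were −0.49 ± 0.49 and −0.27 ± 0.71, and those of SLM2 were −0.26 ± 0.47 and 0.16 ± 0.44 (SD, n = 3 each; limma adjusted p from 0.271 to 0.730). The change of SLM1 on Ypk2 inhibition was −0.88 ± 0.60 (SE), with an interval of −2.24 to 0.48 (95%; unadjusted p = 0.177, limma adjusted p = 1.000), and it was −0.51 without the 60 min array and −0.44 against a baseline averaged over both 0 min arrays.

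**Figure D2:**
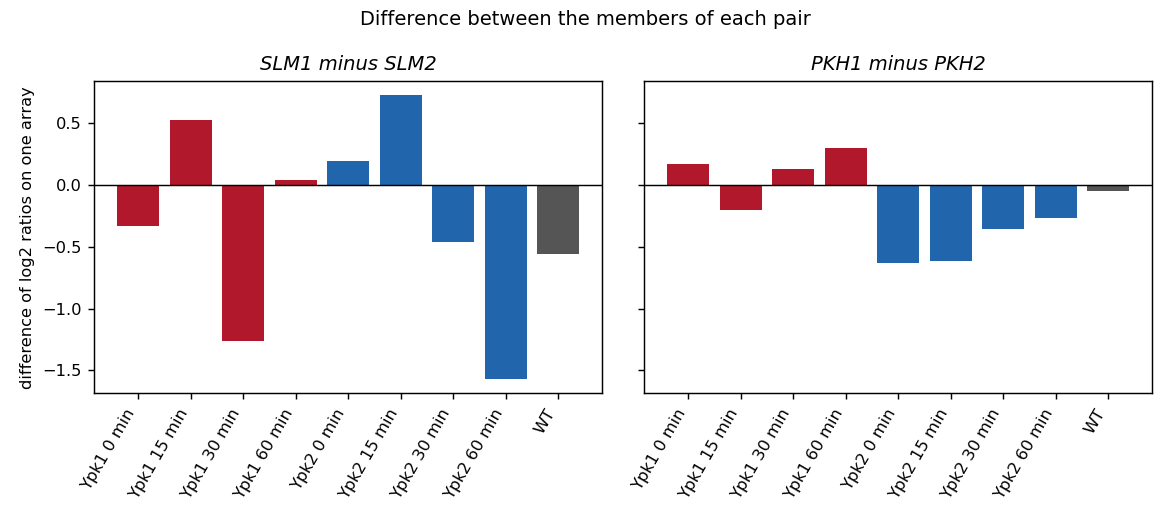
Difference of log2 ratios between SLM1 and SLM2 (left) and between PKH1 and PKH2 (right), 1 bar per array, with the Ypk1 series in red, the Ypk2 series in blue and the WT array in grey. The Slm difference runs from −1.57 to 0.73, and the Pkh difference from −0.63 to 0.30.

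The Pkh kinases, relatives of the mammalian kinase PDK1, kept closer together. PKH1 had ratios of −0.17, 0.12, 0.76 and 1.07 in the Ypk1 series and of −0.44, 0.050, 0.48 and 0.48 in the Ypk2 series. On the centred scale it stood higher at each time than at the one before in both series, which without centring it did in neither. PKH2 had ratios of −0.34, 0.31, 0.63 and 0.77 with AS Ypk1 and of 0.19, 0.66, 0.84 and 0.75 with AS Ypk2. All 6 later values of each gene were above 0 and above the 0 min value of their series. Without centring, both genes stayed above 0 min throughout in the Ypk2 series and not in the Ypk1 series, and only PKH2 with AS Ypk2 stayed above 0 at all 3 times. On all 4 Ypk2 arrays PKH1 was the lower of the pair, with PKH1 minus PKH2 from −0.63 to −0.27.

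PKH2 passed in the Ypk2 series, with a later ratio of 0.75 ± 0.09 (SD, n = 3), a 1.68-fold higher level in AS cells with a 95% interval of 0.31 to 1.19 (limma adjusted p = 0.0390). The Ypk1 value of 0.57 ± 0.23 did not pass (limma adjusted p = 0.0644), and the difference between the series was −0.18, with an interval of −0.80 to 0.44 (95%; limma adjusted p = 0.844). The PKH1 ratios were 0.65 ± 0.49 and 0.34 ± 0.25 (SD, n = 3 each; limma adjusted p = 0.0805 and 0.397), and they differed by 0.31 (interval −0.44 to 1.07). The PKH2 call was lost without the 15, 30 or 60 min array of the Ypk2 series (adjusted p = 0.0982, 0.262 and 0.190) and without centring (0.46, adjusted p = 0.220), and PKH1 passed for the Ypk1 ratio without the 15 min array (0.91, adjusted p = 0.0347).

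With 0 min subtracted, PKH1 changed by 0.82 ± 0.47 and 0.78 ± 0.47 and PKH2 by 0.91 ± 0.38 and 0.56 ± 0.38 (SE) in the Ypk1 and Ypk2 series. None of these passed (limma adjusted p from 0.420 to 1.000), and without centring the Ypk1 changes were 0.31 (PKH1) and 0.40 (PKH2). Of all features, 0.0482% were called for this change with AS Ypk1 and 0% with AS Ypk2, while 11.3% and 5.16% had an unadjusted p under 0.05, as PKH2 (0.0424) and TSC11 did in the Ypk1 series. PKH3, a kinase gene related to both, had later ratios of −0.03 ± 0.42 and −0.37 ± 0.29 (SD, n = 3 each; limma adjusted p = 0.938 and 0.344).

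**Figure D3:**
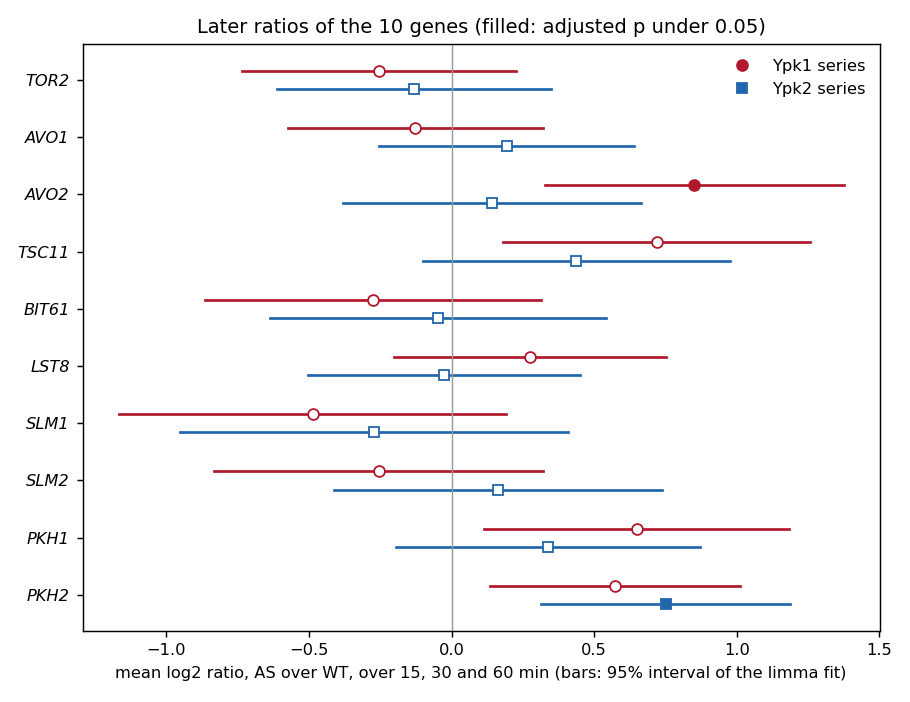
Mean log2 ratio over 15, 30 and 60 min (horizontal axis) of the 10 genes, with the Ypk1 series as red circles above the Ypk2 series as blue squares; bars are 95% intervals of the limma fit and filled symbols have an adjusted p under 0.05. AVO2 in the Ypk1 series (0.85) and PKH2 in the Ypk2 series (0.75) are filled.

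Each array has its own spread. At 0 min they lay between −0.38 (TSC11) and 0.30 (LST8) in the Ypk1 series and between −0.44 (PKH1) and 0.61 (SLM1) in the Ypk2 series. The Ypk1 ranges were −0.58 (TOR2) to 0.96 (TSC11) at 15 min, −0.97 (SLM1) to 0.76 (PKH1) at 30 min and −0.85 (BIT61) to 1.11 (TSC11) at 60 min. For Ypk2 they were −0.47 (BIT61) to 0.66 (PKH2), −0.24 (SLM1) to 0.84 (PKH2) and −0.998 (SLM1) to 0.75 (PKH2). Over all features, the median absolute deviation at 0, 15, 30 and 60 min was 0.28, 0.58, 0.46 and 0.52 with AS Ypk1 and 0.27, 0.41, 0.35 and 0.45 with AS Ypk2, so the whole table was wider at the later times too. On the Ypk1 60 min array TSC11, PKH1 and AVO2, 3 of the 10, were at least 2-fold higher in AS cells, as were 12.3% of features. The other 8 arrays held none of the 10 genes 2-fold apart in either direction, beside 12.7% of their values, with SLM1 at 60 min of the Ypk2 series just short of it.

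In the Ypk1 series, AVO2, TSC11, PKH1 and PKH2 lay above their 0 min value at all 3 later times, which 28% of features did, and 0 of the 10 lay below it throughout (27%). The same 4 genes stood above 0 at all 3 later times (25.2%). PKH1 and PKH2 stood higher at every step, as 4.74% of features did, and 0 of the 10 stood lower at every step (3.46%). For AS Ypk2, LST8, PKH1 and PKH2 lay above 0 min throughout (27.8% of features) and SLM1 below it (28.7%), while TSC11, PKH1 and PKH2 stood above 0 at all 3 later times (28.7%). LST8 and PKH1 stood higher at every step (10.1%). Without centring, TSC11 alone lay above its Ypk1 0 min value throughout (8.83% of features). AVO2 alone then stood above 0 at all 3 later Ypk1 times (13.6%). Higher at every step were 0 of the 10 for Ypk1 (3.15%) and AVO1 for Ypk2 (7.28%), in place of LST8 and PKH1. On this uncentred scale, TOR2, AVO1, SLM1 and SLM2 lay below their Ypk1 0 min value throughout (52.8%). TOR2 and SLM1 lay below their Ypk2 0 min value (30.6%). At all 3 later times, TOR2, AVO1 and SLM1 stood below 0 for Ypk1 (39.4%), and TOR2, BIT61 and LST8 for Ypk2 (47.2%). For Ypk2, AVO1, LST8, PKH1 and PKH2 lay above 0 min throughout (25.1%), and TSC11 and PKH2 above 0 (14.9%). These patterns were looked for after the values were seen and describe single arrays.

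The series compared directly gave 0 differences among the 10 genes and 0 of 6220 features (0%) by limma, and 0 of the 10 had an unadjusted p under 0.05, beside 9.68% of features. Later ratios had the same sign in both series for 7 of the 10 genes (all but AVO1, LST8 and SLM2), beside 72.8% of features, and for 9 of the 10 (all but AVO2), beside 77% of features, without centring. At matched times, Ypk1 minus Ypk2 had 1 sign at all 3 later times for 5 of the 10 genes, beside 33.8% of features. It was above 0 for AVO2 (0.23, 0.47 and 1.43 at 15, 30 and 60 min), LST8 (0.12, 0.26 and 0.53) and PKH1 (0.065, 0.28 and 0.59), and below 0 for AVO1 (−0.23, −0.24 and −0.49) and TOR2 (−0.13, −0.061 and −0.18). Without centring, of these genes only AVO1 kept 1 sign. The uncentred Ypk1 and Ypk2 ratios at 15 min were 0.28 and 0.38 for AVO2 and −0.53 and −0.33 for LST8. For PKH1 they were −0.40 and −0.15 at 15 min, and for TOR2 −0.19 and −0.25 at 30 min. The uncentred share over all features was not computed. With arrays of the same time paired, an alternative added after the data were seen, again 0 of the 10 differences passed (limma adjusted p from 0.565 to 0.905). Across the 10 genes, the ratios of the series correlated at r = 0.691, and over all 6220 features at r = 0.693. Genes are not independent replicates, and the arrays share a platform and a dye orientation.

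On the array of the WT strains, which asks whether the choice of kinase matters without inhibitor, LST8 (0.39) and TOR2 (0.39) were highest in WT Ypk2 over WT Ypk1 cells. AVO1 (0.23), PKH2 (0.15), BIT61 (0.12) and PKH1 (0.10) were also above 0, while SLM2 (−0.01), AVO2 (−0.15), TSC11 (−0.25) and SLM1 (−0.57) were below it. Without centring, 4 of the 10 instead of 6 were above 0, with BIT61 (−0.017) and PKH1 (−0.04) below it. All 10 genes were thus less than 2-fold apart, and only 5.05% of all features were at least 2-fold apart on this array. The value rests on 1 array and has no error.

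Related genes were set beside these differences. The lists were TORC1 subunits, targets of the Ypk and Pkh kinases, genes for the supply and turnover of PI4,5P2 (the lipid that the Slm proteins bind), the eisosome core and calcineurin subunits. Of 11 target and effector genes, 2 were higher in AS Ypk1 cells, 1 was lower and 8 did not pass. In AS Ypk2 cells 2 were higher and 9 did not pass. Over all features, 21.5% (Ypk1) and 11.7% (Ypk2) were called in either direction. None of the 11 genes, nor any gene of the other lists, passed for the change from 0 min, beside 0.0482% and 0% of features. ORM2, an inhibitor of sphingolipid synthesis that Ypk1 phosphorylates, had later ratios of 1.70 ± 0.70 and 1.91 ± 0.26 (SD, n = 3 each; limma adjusted p = 0.00466 and 0.00584), with 0.50 and 0.73 at 0 min and 0.75 on the WT array. GPD1, a glycerol synthesis enzyme, had 1.63 ± 0.39 and 1.42 ± 0.12 (limma adjusted p = 0.00216 and 0.00674), with −0.49 and 0.60 at 0 min. LAC1, a ceramide synthase subunit, was lower in AS Ypk1 cells at −1.44 ± 0.50 (limma adjusted p = 0.00518) and was at −0.67 ± 0.29 in the Ypk2 series (adjusted p = 0.113). It stood at −0.86 before inhibitor with AS Ypk1, as at 30 min, and its change there was −0.58 (limma adjusted p = 0.669). FPK1, a flippase kinase gene, was at 0.50 ± 0.54 and 0.60 ± 0.17 and did not pass (adjusted p = 0.165 and 0.140). The absolute ratios of ORM2 and GPD1 were larger than those of any of the 10 upstream genes in both series. However, these 2 were named for having the largest absolute mean ratios of the 11 genes. The median later ratios of all 11 were 0.27 (Ypk1) and 0.21 (Ypk2), beside 0.07 and 0.15 for the 10 upstream genes.

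Of 10 genes for PI4,5P2 supply and turnover, 2 were lower in each series and 8 did not pass. Over all features, 10.5% (Ypk1) and 4.73% (Ypk2) were called lower, and 21.5% and 11.7% in either direction. YPP1, which helps to place the lipid kinase Stt4 at the membrane, had ratios of −0.21, −1.50, −2.47 and −3.87 with AS Ypk1 and of −0.90, −2.26, −2.77 and −3.07 with AS Ypk2. It stood lower at each time than at the one before, and it was also low on the WT array, at −1.61. Its later ratios were −2.62 ± 1.19 and −2.70 ± 0.41 (SD, n = 3 each; limma adjusted p = 0.00362 and 0.00596). EFR3, which encodes the partner of Ypp1 at the membrane, had later ratios of −0.74 ± 0.36 and −0.78 ± 0.14 (limma adjusted p = 0.0359 and 0.0442). EFR3 was at −0.15 and −0.74 at 0 min, so that in the Ypk2 series the ratio preceded the inhibitor. The lipid phosphatase genes INP52 (0.97 ± 0.08 and 0.95 ± 1.23) and INP51 (−0.68 ± 0.40 and −0.49 ± 0.12) did not pass in either series (adjusted p from 0.0523 to 0.177).

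Among 8 eisosome core genes, which build the membrane furrows where Slm proteins reside, 2 were lower in AS Ypk1 cells and 6 did not pass. Of all features, 10.5% were called lower there and 21.5% in either direction. In the Ypk2 series 0 of 8 passed, beside 11.7% of features, and 2 had an unadjusted p under 0.05, beside 27.6%. SUR7, a furrow membrane protein, was at −0.98 ± 0.54 and −0.74 ± 0.48 (SD, n = 3 each; limma adjusted p = 0.0327 and 0.116). The other call was SEG1, an eisosome stability gene, at −0.73 ± 0.42 (adjusted p = 0.0431), and at 0.25 ± 0.11 in the Ypk2 series (adjusted p = 0.508). PUN1 was at −1.23 ± 1.51 and −1.15 ± 0.37 and did not pass (adjusted p = 0.0907 and 0.147), nor did PIL1, the main structural gene, at 0.21 ± 0.29 and 0.40 ± 0.12, and EIS1 at 0.30 ± 0.46 and 0.25 ± 0.06. SEG1 was named after its values were seen.

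Of 3 calcineurin genes, which encode the phosphatase that acts on Slm proteins, CNB1 was higher in AS Ypk1 cells at 0.84 ± 0.30 (SD, n = 3; limma adjusted p = 0.0483). Of all features, 10.9% were called higher in that series. The catalytic subunit genes CMP2 (−0.73 ± 0.44, adjusted p = 0.0504) and CNA1 (−0.29 ± 0.51, adjusted p = 0.459) did not pass there. In the Ypk2 series 0 of the 3 passed, beside 11.7% of features, with 0 at an unadjusted p under 0.05, beside 27.6%. For TORC1, 0 of 3 subunit genes passed in either series, beside 21.5% (Ypk1) and 11.7% (Ypk2) of features. There were 1 and 0 at an unadjusted p under 0.05, beside 36.8% and 27.6% of all features. TOR1, the kinase of that complex, was at −0.80 ± 0.83 and −0.47 ± 0.26 (adjusted p = 0.0879 and 0.356), KOG1 at 0.08 ± 1.24 and 0.06 ± 0.19, and TCO89 at 1.17 ± 1.54 and 1.06 ± 1.44.

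**Figure D4:**
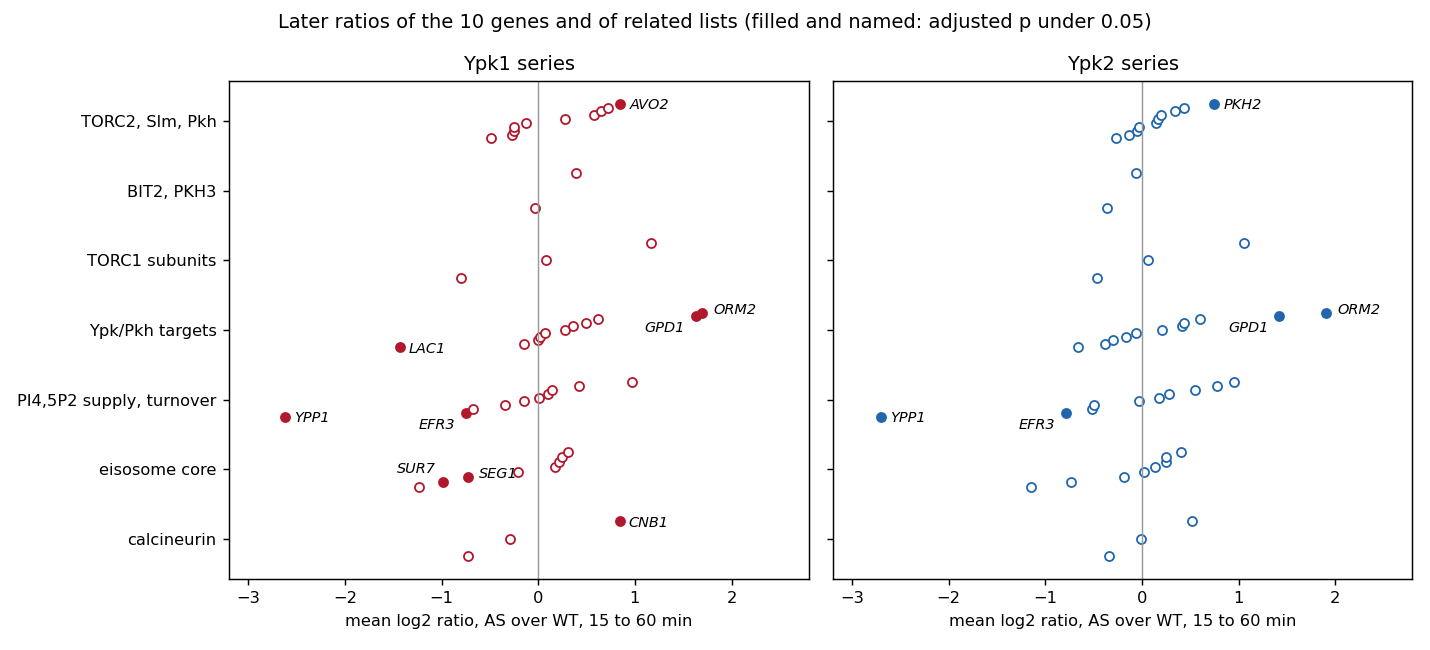
Mean log2 ratio over 15, 30 and 60 min (horizontal axis) for each gene of the 10 and of the related lists (rows), Ypk1 series left and Ypk2 series right; 1 point per gene, filled and named where the limma adjusted p is under 0.05. The 10 upstream genes lie between −0.49 and 0.85 on the left and between −0.27 and 0.75 on the right, while YPP1 lies at −2.62 and −2.70.

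For each role, the member with the largest absolute mean of both later ratios was taken. The genes with the most similar course were found by root mean square distance over the 8 time course arrays. For PKH2 they were COQ3 (0.12), PSF2 (0.14) and OPY2 (0.14), beside a median distance of 0.82 over all features. For TSC11 they were MAM1 (0.21), NPR2 (0.22) and HIM1 (0.23), beside a median of 0.85. SLM1 was closest to YOR050C (0.16), MTM1 (0.20) and MCM7 (0.23), beside a median of 0.81. None of these is another of the 10 genes.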

How the data were processed

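The deposited values are log2 ratios of the Cy5 over the Cy3 channel, with the dyes per the labels. How the authors normalized them, the scanner and the array design are not given in the sources used here. As powers of 2, 100% of the values give ratios that are multiples of 0.001, and as powers of 10 it is 28.1%, which sets the log base. The direction was read from YPK1 and YPK2 on the WT array and is assumed for the other 8. Intensities were not used here, so signal over background is unknown.

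The median of each array was subtracted. A limma 3.58.1 model (R 4.3.3) was fitted to the 6220 features measured at every time of both series (1 mean per kinase at 0 min and 1 over the later times, 4 residual degrees of freedom), with Benjamini-Hochberg adjustment over all 6220 and a threshold of 0.05. Since 0 min has 1 array per series, its spread is taken to equal that of later times. Symbols came from the R64 annotation, which matched 5777 features. The fit was run on simulated data with independent arrays, so that run could not test the use of successive times as repeats.

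Alternatives were no centring, scaled or quantile-normalized arrays, array weights, robust variances, all features, a shared 0 min baseline, leaving out each later array and, added after the data were seen, pairing by time for the difference between series. The members and lists were chosen with earlier results of these data known. The text names the members and at most 4 genes per related list with the largest absolute mean ratio. SEG1, MSS4 and the strain check genes are named besides.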

Additional observations from a re-analysis of the deposited data

How the results depend on the processing

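No paired analysis was possible because the labels number no replicates, except that arrays share times; pairing by time left 0 of 10 differences between series past the threshold. The number of arrays sets the limit here, and signal over background is unknown. Of the 10 genes, 0 passed in the Ypk1 and Ypk2 changes and in the difference between series under every alternative run. For the Ypk1 ratio, 1 gene (AVO2) passed and 0 did with array weights, scaled arrays or no centring. Leaving out 1 array gave 0 to 1 (0 without Ypk1 60 min or Ypk2 30 min). The 1 gene was PKH1 without Ypk1 15 min and TSC11 without Ypk1 30 min, in place of AVO2. For the Ypk2 ratio, 1 passed, 0 without centring and 7 with array weights, a fit that did not converge and called 4157 of 6220 features; leaving out 1 array gave 0 to 1 (0 without Ypk2 15, 30 or 60 min). The AVO2 call in the Ypk1 series held in 5 of 12 alternatives (log2 0.57 to 0.91, adjusted p from 0.0308 to 0.145) and the PKH2 call in the Ypk2 series in 8 of 12 (0.46 to 0.83, 7.20e-06 to 0.262). The 8 include the array weights fit and the fits without a Ypk1 array, which only enters the shared spread. No fit without a later Ypk2 array or without centring is among them.

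Without centring, the median of all features was −0.29 for the Ypk1 ratio, −0.28 for the Ypk2 ratio and −0.51 for the Ypk1 change. Then 5 of the 10 genes instead of 3 were above 0 at Ypk1 0 min, 2 instead of 5 at 15 min, 5 instead of 8 at 30 min, and 3 instead of 7 at both Ypk2 0 and 30 min. The sign also turned for AVO1 in the Ypk1 change (−0.38), LST8 in the Ypk1 ratio (−0.0060) and AVO1 (−0.10), AVO2 (−0.15) and SLM2 (−0.13) in the Ypk2 ratio. Scaled arrays turned the Ypk1 changes of BIT61 (0.15) and TOR2 (0.11), and quantile normalization those of BIT61 (0.15), TOR2 (0.12) and SLM1 (0.0081). Array weights turned LST8 in the Ypk1 change (0.083) and TOR2 in the Ypk2 change (0.020) and ratio (0.037). A shared 0 min baseline turned LST8 in the Ypk1 change (0.25) and BIT61 (0.033), LST8 (−0.052) and TSC11 (0.36) in the Ypk2 change.

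Leaving out 1 array gave values of both signs for these genes. The Ypk1 ratio of BIT61 ran from −0.51 to 0.014. The Ypk2 ratio ran from −0.074 to 0.41 for AVO2, −0.25 to 0.16 for BIT61, −0.11 to 0.026 for LST8, −0.62 to 0.091 for SLM1, −0.042 to 0.39 for SLM2 and −0.23 to 0.026 for TOR2. The Ypk1 change ran from −0.27 to 0.26 for BIT61, −0.23 to 0.12 for LST8, −0.47 to 0.022 for SLM1 and −0.18 to 0.11 for TOR2. The Ypk2 change ran from −0.11 to 0.38 for AVO2, −0.33 to 0.081 for BIT61 and −0.24 to 0.0091 for TOR2. The difference between series ran from −0.47 to 0.061 for BIT61, −0.58 to 0.13 for SLM1 and −0.28 to 0.039 for TOR2. None of these passed as reported, and the cause was not tested.

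Over all features, the Ypk1 ratio had 1335 calls, 725 without Ypk1 60 min and 881 without Ypk2 30 min. The Ypk2 ratio had 728 calls, 1214 with scaled arrays, 1156 with quantile normalization, and 403, 53 and 87 without Ypk2 15, 30 and 60 min. The Ypk1 change had 3 calls, 6 without centring, 59 with scaled arrays, 19 after quantile normalization, 88 with array weights and 0 with the shared baseline. The Ypk2 change had 0 calls, 12 with scaled arrays, again 12 after quantile normalization and 159 with array weights, and the difference had 0 and 8 with array weights.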

Other observations

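Some related genes had uneven ratios across arrays. MSS4, which encodes the kinase that makes PI4,5P2, was at 2.95 on the Ypk2 15 min array and between −0.32 and 0.47 on the other 8 arrays. TCO89, a TORC1 subunit gene, was at 2.74 at 15 min with AS Ypk1 and at 2.70 at 60 min with AS Ypk2, at 1.47 at 0 min with AS Ypk2 and 1.09 at 60 min with AS Ypk1, and between −0.40 and 0.44 on the other 5 arrays. INP52 was at 2.22 at 0 min of the Ypk1 series and at 2.38 at 15 min of the Ypk2 series, and between 0.07 and 1.05 on the other 7 arrays. These genes were named after their values were seen.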
